A study of Arabidopsis thaliana with 20 samples.

Results

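COR27 (AT5G42900), COR28 (AT4G33980) and the transcripts AT1G07050, AT1G17665, AT4G25580, AT3G57420, AT1G67105 and AT1G56300 make up a set of 8 among the 30613 genes and transposable elements with a value in the expression table, after 92 spike-in rows were set aside. They were picked because their signal had been several-fold higher in del-cIDR than in inactive del-cIDR libraries. That difference chose the set, so it is given below as a description and was not tested.

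The table came from chromatin-associated RNA, the RNA that stays with the chromatin when nuclei are fractionated, of whole Arabidopsis thaliana seedlings 10 days old. All plants were of the Columbia (Col-0) strain and grew on medium with 1.5% sucrose at 21 °C, with 16 h of light and 8 h of darkness. Lines of 4 kinds overexpressed human ALKBH5, an enzyme that removes the RNA mark N6-methyladenosine (m6A). In del-cIDR the protein lacked its C-terminal intrinsically disordered region, and inactive del-cIDR lacked that region and carried the substitution H204A in the catalytic site. FL was the full-length protein, inactive FL was the full-length protein with H204A, and Col-0 was untransformed. Each of the 5 genotypes had 2 input libraries, made before the m6A immunoprecipitation, and 2 immunoprecipitated ones. The promoter of the transgenes, the number of independent lines behind a genotype and the hour of harvest are not given in the sources used here. Whether the 2 libraries of a genotype came from separate plants is not given either, so p-values measure only the spread between these libraries, which may be technical. Each construct and the line that carries it cannot be told apart.

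COR27 and COR28 are a related pair of cold-regulated Arabidopsis genes whose transcripts also follow the circadian clock and are most abundant from the afternoon into the evening. Their proteins have no known DNA-binding domain and repress the evening clock genes PRR5 and TOC1, while the morning factor CCA1 represses COR27 and COR28 themselves. In light signalling they act with the photomorphogenesis regulators COP1 and HY5. AT1G67105 is annotated as a non-coding RNA. The remaining transcripts have no gene name in the gene table used, which is built on the assembly TAIR10.1, and no role is given for them here.

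The median feature of an input library had a signal between 51.0 and 100.2. The sum of the 45 ERCC spike-in controls lay between 109313 and 110569 in every library, a nearly constant sum, while the normalization itself is not given in the sources used here. The table gives no read depth, so no error from counting can be attached to its values. The median feature differed between genotypes on this scale, by 0.27 (log2) between del-cIDR and inactive del-cIDR, by 0.43 between FL and inactive FL and by 0.22 to 0.67 between each line and Col-0. The 4 shoot marker genes RBCS1A, LHCB1.1, LHCB2.1 and RCA were far above 0 in every library and none of the 5 root markers was at 0. The shoot markers summed to a signal of 64150 to 65025 in del-cIDR, 106442 to 107306 in inactive del-cIDR, 35929 to 36923 in FL, 36815 to 37869 in inactive FL and 24750 to 25200 in Col-0. Each of the 4 shoot markers was highest in inactive del-cIDR, but by unequal margins. RBCS1A averaged 12359 there against 11795 for del-cIDR, and LHCB2.1 averaged 5138 against 2062. RBCS1A was also lower in FL (mean 6901) than in Col-0 (7581), while the other shoot markers were higher in FL, LHCB1.1 at 13661 against 5310. The root markers summed to a signal of 1266 to 1359 in del-cIDR, 931 to 983 in inactive del-cIDR, 1582 to 1647 in FL, 1205 to 1283 in inactive FL and 1067 to 1125 in Col-0. PIN2 went against the root sum, with a mean of 184 for inactive del-cIDR and 160 for del-cIDR, while the other root markers were higher in del-cIDR. The sums thus do not describe each marker. Changes in the share of shoot cells and changes in RNA per cell cannot be told apart in whole seedlings, and the part of the shoot markers in the results below was not tested.

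The 8 transcripts fell into 2 patterns. COR27, COR28, AT1G07050, AT1G17665 and AT4G25580 had means in del-cIDR, FL and inactive FL of 0.800 to 1.37 times their Col-0 mean and a signal several-fold lower in inactive del-cIDR. AT3G57420, AT1G67105 and AT1G56300 were instead at least 2-fold higher in del-cIDR than in the mean of the other 8 libraries. The higher signal in del-cIDR than in inactive del-cIDR thus went with a low value in the inactive line for 5 transcripts and with a high value in the active line for 3.

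**Figure D1:**
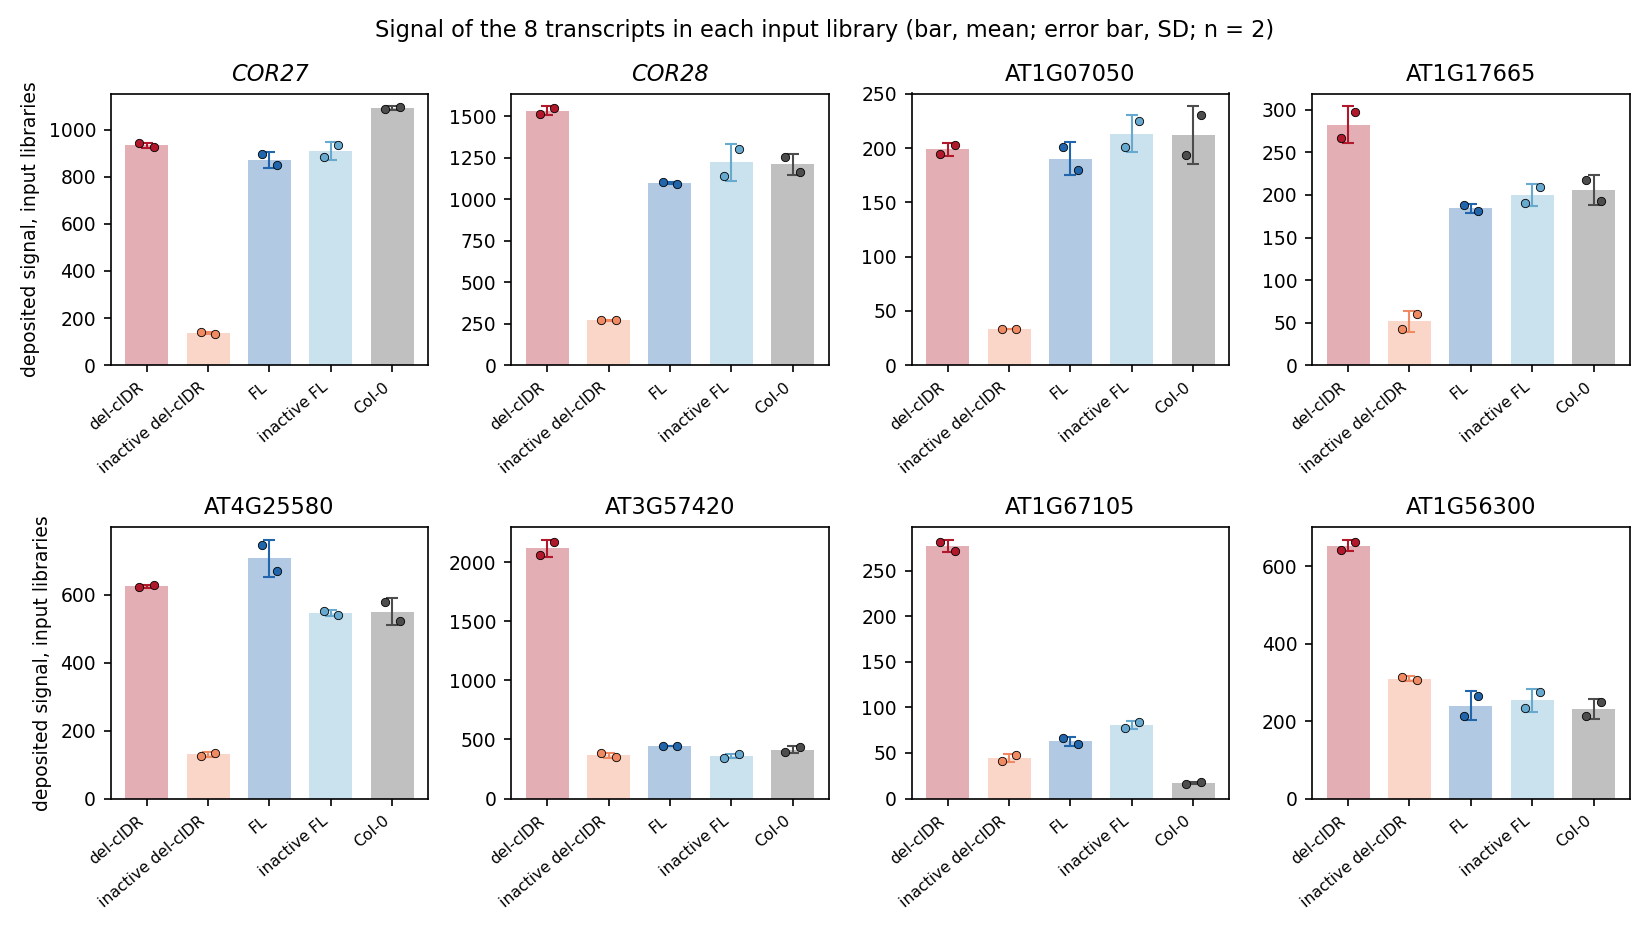
Deposited signal (linear axis from 0) of each transcript in the 2 input libraries of del-cIDR, inactive del-cIDR, FL, inactive FL and Col-0; points are libraries, bars the mean of 2 and error bars the SD. In the panels of COR27, COR28, AT1G07050, AT1G17665 and AT4G25580 the inactive del-cIDR libraries lie below all others, and in those of AT3G57420, AT1G67105 and AT1G56300 the del-cIDR libraries lie above all others.

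COR27 had a signal of 942 and 926 in the del-cIDR libraries, 141 and 134 in inactive del-cIDR, 897 and 849 in FL, 883 and 936 in inactive FL, and 1086 and 1097 in Col-0. The Col-0 libraries were the highest, inactive FL overlapped with both del-cIDR and FL in the middle, and inactive del-cIDR stood apart below. The inactive del-cIDR mean was 0.126 times that of Col-0, against 0.856 times for the del-cIDR mean.

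COR28 had a signal of 1515 and 1552 in the del-cIDR libraries, 269 and 274 in inactive del-cIDR, 1104 and 1094 in FL, 1143 and 1303 in inactive FL, and 1255 and 1166 in Col-0. The del-cIDR libraries were above all others, inactive FL and Col-0 overlapped, and inactive del-cIDR was again lowest, at 0.224 times the Col-0 mean. COR27 and COR28 therefore differed in del-cIDR, where COR28 was at 1.27 times its Col-0 mean and COR27 at 0.856 times. The difference between these ratios was not tested, since it rests on libraries that chose the set.

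AT1G07050 had a signal of 195 and 203 in the del-cIDR libraries, 33.7 and 33.7 in inactive del-cIDR, 201 and 180 in FL, 201 and 225 in inactive FL, and 193 and 231 in Col-0. Apart from inactive del-cIDR, at 0.159 times Col-0, the genotypes that follow each other in level overlapped.

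AT1G17665 had a signal of 267 and 298 in the del-cIDR libraries, 42.6 and 60.4 in inactive del-cIDR, 188 and 181 in FL, 191 and 209 in inactive FL, and 218 and 193 in Col-0. As for COR28, the del-cIDR libraries were highest and the inactive del-cIDR libraries lowest, at 0.251 times Col-0.

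AT4G25580 had a signal of 621 and 627 in the del-cIDR libraries, 126 and 134 in inactive del-cIDR, 745 and 669 in FL, 552 and 540 in inactive FL, and 577 and 522 in Col-0. FL was the highest genotype here, with no overlap with del-cIDR, and inactive del-cIDR was at 0.236 times Col-0.

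Among the 6 libraries of FL, inactive FL and Col-0, the highest signal was 1.29 times the lowest for COR27, 1.19 times for COR28, 1.28 times for AT1G07050, 1.21 times for AT1G17665 and 1.43 times for AT4G25580. Having both inactive del-cIDR libraries lowest of 10, with a mean at least 2-fold below that of the other 8, is a rare pattern: 110 features had it, 0.359% of all, and 5 of these 110 are COR27, COR28, AT1G07050, AT1G17665 and AT4G25580. The set was chosen on libraries that enter this pattern, so nothing is read from that share or from the size of the gap to inactive del-cIDR.

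AT3G57420 had a signal of 2065 and 2167 in the del-cIDR libraries, 383 and 350 in inactive del-cIDR, 443 and 443 in FL, 346 and 375 in inactive FL, and 396 and 434 in Col-0. Its del-cIDR mean was 5.10 times that of Col-0, while the other lines were within 0.870 to 1.07 times. Its Arabidopsis homologue AT2G41770 had a signal of 229 and 220 in the del-cIDR libraries, 173 and 160 in inactive del-cIDR, 192 and 211 in FL, 139 and 130 in inactive FL, and 108 and 131 in Col-0. The del-cIDR libraries of AT2G41770 were also its highest, though close to those of FL.

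AT1G67105, the non-coding RNA, had a signal of 282 and 272 in the del-cIDR libraries, 41.6 and 47.6 in inactive del-cIDR, 66.4 and 59.6 in FL, 77.5 and 84.1 in inactive FL, and 16.3 and 17.7 in Col-0. It was the one transcript of the set whose 5 genotypes did not overlap at any step, and Col-0 was its lowest genotype. All 4 kinds of line lay above Col-0, at 16.3 times its mean in del-cIDR, 2.63 times in inactive del-cIDR, 3.71 times in FL and 4.76 times in inactive FL.

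AT1G56300 had a signal of 643 and 663 in the del-cIDR libraries, 315 and 305 in inactive del-cIDR, 213 and 266 in FL, 233 and 274 in inactive FL, and 212 and 250 in Col-0. Del-cIDR was highest and inactive del-cIDR second, both clear of the remaining genotypes, which overlapped. Having both del-cIDR libraries highest of 10 and at least 2-fold above the mean of the other 8 held for 163 features, 0.532% of all, AT3G57420, AT1G67105 and AT1G56300 among them, and again nothing is read from that share.

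On the difference that chose the set, del-cIDR minus inactive del-cIDR, the log2 values were 2.71 for COR27, 2.51 for AT3G57420, 2.47 for COR28, 2.46 for AT1G67105, 2.34 for AT1G07050, 2.32 for AT1G17665, 2.21 for AT4G25580 and 1.06 for AT1G56300. All features together had a median difference of 0.27, and 28.7% of them were called higher in del-cIDR and 2.76% lower at a Benjamini-Hochberg adjusted p under 0.05 (limma, two-sided). Among the 15307 features whose mean signal was not below the median, 7 of the 8 largest differences belonged to the set and the other was that of FKF1, a blue-light receptor of the evening clock, at 2.34. The next feature below AT4G25580 was the transposable element AT5TE37665, at 2.20. AT1G56300 came 131st in the same ranking, with AT3G59350 just above it at 1.06 and AT1G13630 just below at 1.06, so it was not separated from its neighbours in rank by this difference.

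Levels between the transcripts were compared per kilobase of gene span. Whether reads were counted over exons or whole genes is not given in the sources used here, so the order between transcripts is uncertain. In Col-0 the signal per kilobase was 481 for COR27, 410 for COR28, 209 for AT4G25580, 133 for AT3G57420, 126 for AT1G07050, 96.4 for AT1G56300, 86.6 for AT1G17665 and 21.6 for AT1G67105. In inactive del-cIDR, COR27 stood at 60.5 and COR28 at 92.0 per kilobase, below AT1G56300 at 129 and AT3G57420 at 117. In del-cIDR the highest of the set was AT3G57420, at 676 per kilobase, above COR28 at 520 and COR27 at 411.

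The libraries of FL, inactive FL and Col-0 did not enter the choice of the set and gave 3 comparisons that could be tested. FL against Col-0 and inactive FL against Col-0 share the Col-0 libraries. Exact tests of 2 libraries against 2 cannot go below a p of 0.333, so calls rest on limma fitted to all 30613 features over the 10 input libraries, with Benjamini-Hochberg adjusted p-values over all features.

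In FL against inactive FL, which differ in the catalytic-site substitution and in the line that carries it, 3 of the 8 transcripts were called. AT4G25580 rose in FL by 0.37 on the log2 scale (SE 0.08, limma adjusted p = 0.000400), and AT3G57420 rose by 0.29 (SE 0.08, limma adjusted p = 0.00193). COR28 was lower in FL by a small margin, with a log2 difference of -0.15 (SE 0.07, limma adjusted p = 0.0461). That call was lost when an FL, a Col-0 or a del-cIDR library was left out in turn, with limma adjusted p between 0.0519 and 0.154, and when inactive FL replicate 2 was left out (-0.06, limma adjusted p = 0.476). COR27 differed by -0.06 (SE 0.07, limma adjusted p = 0.469), less than the spread between libraries, and its libraries overlapped. Against these 3 of 8 stands a background of 58.9% of all features called, 58.1% higher in FL and 0.751% lower. These 18020 features became 9346 without inactive FL replicate 1 and 11897 without FL replicate 2. The members' median log2 difference was -0.10, where the median of all features was 0.43 and that of the 11837 features in the members' range of levels was 0.29. All 8 members lay below the median of all features. Beside the median of features in their range of levels, AT4G25580 (0.37) lay above and AT3G57420 (0.29) was about equal. After each library was centred on its median, 7 of the 8 were called, all lower in FL, and AT3G57420 (-0.26) and AT4G25580 (-0.18) changed direction.

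In FL against Col-0, 3 of the 8 were called, beside 77.0% of all features. AT1G67105 rose in FL by 1.55 (SE 0.20, limma adjusted p = 5.79e-09) and AT4G25580 rose by 0.36 (SE 0.08, limma adjusted p = 0.000227). COR27 fell by 0.32 (SE 0.07, limma adjusted p = 0.000123), to 873 ± 34 in FL against 1091 ± 8 in Col-0 (SD, n = 2 each). COR28 differed in the same direction by -0.14 (SE 0.07, limma adjusted p = 0.0539), which did not pass. Among all features, 75.5% were called higher in FL and 1.47% lower, and the median of all features was 0.67. Relative to that median 7 of the 8 lay below, COR27 by -0.99, and the exception was AT1G67105. After centring, all 8 were called, AT1G67105 as higher (0.70) and the others as lower, among them AT4G25580 (-0.48), whose direction turned.

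In inactive FL against Col-0, 2 of the 8 were called, beside 20.0% of all features, 16.9% higher in inactive FL and 3.12% lower. AT1G67105 rose in inactive FL by 1.87 (SE 0.20, limma adjusted p = 8.98e-11). COR27 fell by 0.26 (SE 0.07, limma adjusted p = 0.00602), to 910 ± 38 in inactive FL against 1091 ± 8 in Col-0 (SD, n = 2 each), and this call was lost without Col-0 replicate 2 (-0.25, limma adjusted p = 0.0636). COR28, AT1G07050, AT1G17665 and AT4G25580 had log2 differences between -0.04 and 0.01 with limma adjusted p-values of 0.878 to 0.963. AT3G57420 had -0.20 (limma adjusted p = 0.0645) and AT1G56300 0.13 (limma adjusted p = 0.395). After centring, 5 of the 8 were called, AT1G67105 as higher (1.58) and COR27 (-0.56), AT3G57420 (-0.49), AT4G25580 (-0.30) and COR28 (-0.28, its direction turned) as lower.

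**Figure D2:**
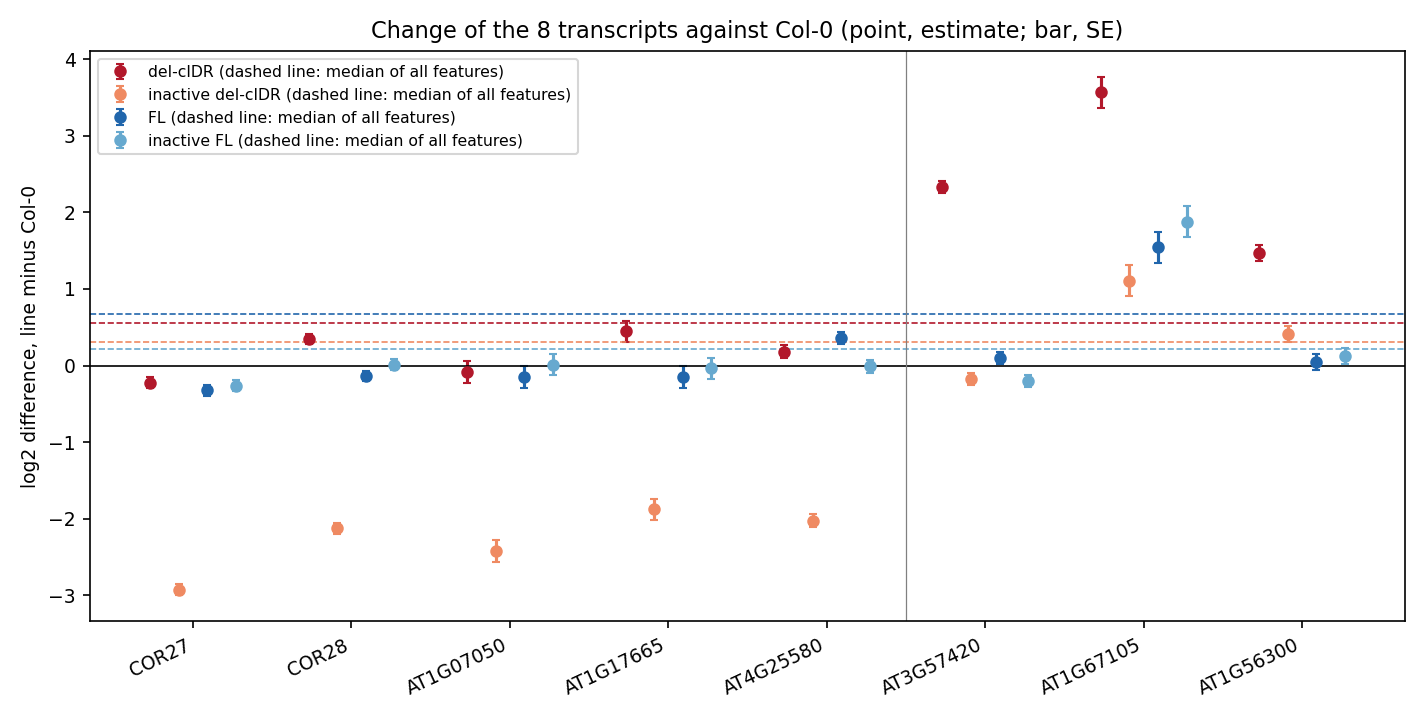
Log2 difference of each transcript in each line from Col-0 (points, limma estimate; bars, SE; dashed lines, the median of all features in that comparison). For COR27, COR28, AT1G07050, AT1G17665 and AT4G25580 the inactive del-cIDR points lie between -2.93 and -1.88 while the other lines lie between -0.32 and 0.45; AT1G67105 is above 0 in all 4 lines.

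For both del-cIDR lines, active and inactive, the difference from Col-0 is given as a description. In inactive del-cIDR minus Col-0 it was -2.93 for COR27, -2.43 for AT1G07050, -2.13 for COR28, -2.02 for AT4G25580 and -1.88 for AT1G17665, while the median of all features was 0.31. AT3G57420 was at -0.17, AT1G56300 at 0.41 and AT1G67105 at 1.11. In del-cIDR minus Col-0, COR27 was at -0.22, AT1G07050 at -0.08, AT4G25580 at 0.18, COR28 at 0.34 and AT1G17665 at 0.45, beside a median of all features of 0.56. AT1G56300 was at 1.47, AT3G57420 at 2.33 and AT1G67105 at 3.57.

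Likeness of profile was measured as the root-mean-square difference of log2 values over the 10 input libraries, each transcript centred on its own mean. Among COR27, COR28, AT1G07050, AT1G17665 and AT4G25580 the 10 pairs differed by 0.148 to 0.405. The 3 pairs among AT3G57420, AT1G67105 and AT1G56300 differed by 0.495 to 0.769, and the 15 pairs between the patterns by 0.872 to 1.46. The closest pair was COR28 with AT1G17665, at 0.148, followed by COR27 with AT1G07050, at 0.179. COR27 and COR28 themselves differed by 0.288. These distances include the del-cIDR and inactive del-cIDR libraries that chose the set and define the 2 patterns, so that pairs are closer within a pattern than between patterns is a description only.

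Of the 15307 features at or above the median in mean signal, those most like COR27 were AT1G07050, COR28, COL9 (0.320), AT4G25580 (0.322) and BCAT-2 (0.390), where the median feature stood at 1.102. Those most like COR28 were AT1G17665, AT1G07050 (0.199), GRP7 (0.210), AT4G25580 (0.231) and XTH15 (0.260), where the median feature stood at 0.880. COL9, a CONSTANS-like B-box protein, had a signal of 778 and 804 in the del-cIDR libraries, 241 and 203 in inactive del-cIDR, 824 and 845 in FL, 840 and 893 in inactive FL, and 1219 and 1312 in Col-0. GRP7, a clock-regulated glycine-rich RNA-binding protein, had 61781 and 63014 in the del-cIDR libraries, 16011 and 15739 in inactive del-cIDR, 51680 and 52653 in FL, 50522 and 49755 in inactive FL, and 47274 and 47850 in Col-0. COL9 thus shared with COR27 a maximum in Col-0, and GRP7 shared with COR28 a maximum in del-cIDR. BCAT-2, a branched-chain aminotransferase, averaged 4759 ± 112 in del-cIDR, 1640 ± 3 in inactive del-cIDR and 6798 ± 175 in Col-0 (SD, n = 2 each). XTH15, a xyloglucan endotransglucosylase, averaged 1462 ± 43 in del-cIDR, 430 ± 3 in inactive del-cIDR and 1323 ± 40 in Col-0 (SD, n = 2 each).

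These lists changed when both del-cIDR and inactive del-cIDR were left out. Over the 6 libraries of FL, inactive FL and Col-0 alone, the 5 features most like COR27 were GRF6, PSBR, CYP71B7, PATL1 and MGL, and the 5 most like COR28 were AT1G03140, RBCS1B and the plastid-encoded ATCG00750, ATCG00170 and ATCG00820. Of these, 0 were among the 5 named over 10 libraries for the same gene. In those 6 libraries COR27 varied little, and 12918 of the 15307 features compared lay within 0.5 of it, against 17 over the 10 libraries.

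Clock genes were read beside the set because COR27 and COR28 act on some of them. On a list of 12 evening clock genes, 11 rose in del-cIDR against inactive del-cIDR and the remaining one, CHE, was not called (limma adjusted p under 0.05), beside 28.7% of all features called higher and 2.76% lower. The list median was 1.36, against 0.27 for all features. After centring 9 were called higher and 0 lower. The largest of them was FKF1, with 1955 and 1948 in the del-cIDR libraries, 389 and 369 in inactive del-cIDR, 871 and 917 in FL, 823 and 866 in inactive FL, and 683 and 721 in Col-0.

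TOC1, a pseudo-response regulator that COR27 and COR28 repress, had a signal of 4197 and 4212 in the del-cIDR libraries, 1376 and 1321 in inactive del-cIDR, 4144 and 4143 in FL, 4201 and 4282 in inactive FL, and 4390 and 4406 in Col-0. It was low in the same libraries as COR27 and COR28. PRR5, the other known target, had 2988 and 3151 in the del-cIDR libraries, 1206 and 1280 in inactive del-cIDR, 1351 and 1257 in FL, 1128 and 1299 in inactive FL, and 1073 and 1149 in Col-0. It was high in del-cIDR, with inactive del-cIDR in the range of FL and inactive FL, and so followed the pattern of AT3G57420 and AT1G56300 rather than that of COR27.

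In inactive del-cIDR against Col-0, 7 of the 12 evening genes fell and 2 rose, beside 7.84% of all features called lower and 32.4% called higher, and the list median was -1.01 where that of all features was 0.31. LUX, a DNA-binding subunit of the evening complex, fell by 1.82 (SE 0.06), to 560 ± 25 in inactive del-cIDR against 1990 ± 79 in Col-0 (SD, n = 2 each). TOC1 fell by 1.70 (SE 0.04), PRR3 by 1.43 (SE 0.08) and ELF3, the scaffold of the evening complex, by 1.15 (SE 0.06). The evening genes PRR3, TOC1, ELF3, ELF4, LUX, BOA and FKF1 had the pattern of COR27, with both inactive del-cIDR libraries lowest of 10 and at least 2-fold below the mean of the rest. PRR5, GI and FKF1 had both del-cIDR libraries highest and at least 2-fold above. Of all features, 0.359% had the first of these patterns and 0.532% the second. After centring, 11 of the 12 were called lower in inactive del-cIDR than in Col-0 and 1 higher.

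**Figure D3:**
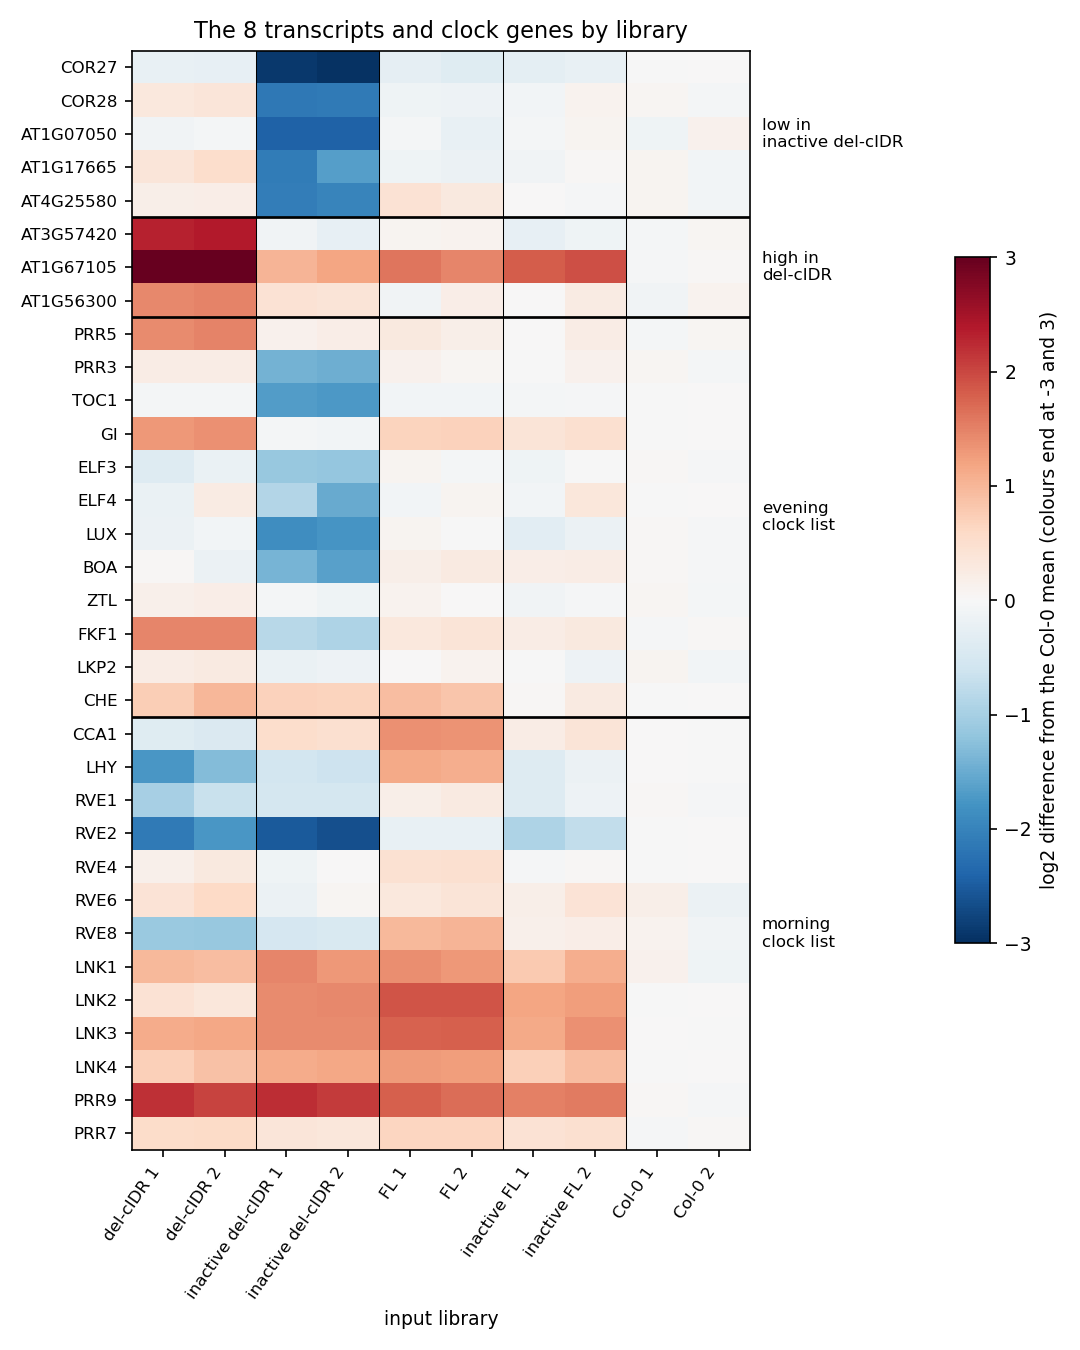
Log2 difference of each input library from the Col-0 mean (colour; blue below, red above) for the 8 transcripts and the evening and morning clock lists; rows are transcripts and columns libraries. The inactive del-cIDR columns are blue for COR27, COR28, AT1G07050, AT1G17665 and AT4G25580 and for TOC1, LUX, PRR3, ELF3, ELF4 and BOA, and the del-cIDR columns are red for AT3G57420, AT1G67105, AT1G56300, PRR5, GI and FKF1. The morning gene RVE2 is blue in the columns of both del-cIDR and inactive del-cIDR.

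In the remaining lines the evening list was also set against Col-0. In del-cIDR 7 of the 12 rose and ELF3 alone fell, beside 65.5% of all features called higher and 1.85% lower. In FL 5 rose and 0 fell, beside 75.5% of all features higher and 1.47% lower. In inactive FL 2 rose and LUX fell, beside 16.9% higher and 3.12% lower. The higher counts in del-cIDR, FL and inactive FL were thus not above the shares of all features. After centring, 8 were called lower in del-cIDR and 4 higher (PRR5, GI, FKF1 and CHE). In FL 10 were called lower and in inactive FL 6, with 0 higher in each. The direction of much of the list against Col-0 in del-cIDR, FL and inactive FL thus depended on the scaling. In FL against inactive FL, 3 of the 12 rose and 0 fell, beside 58.1% of all features higher, where centring gave 11 lower, as it did for most of the 8 transcripts.

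The morning list of 13 genes, which holds CCA1, a repressor of COR27 and COR28, gave 8 genes lower and 4 higher in del-cIDR against inactive del-cIDR, beside 2.76% of all features lower and 28.7% higher. After centring 8 were called lower and 1 higher. CCA1 had a signal of 362 and 342 in the del-cIDR libraries, 678 and 656 in inactive del-cIDR, 1224 and 1203 in FL, 547 and 608 in inactive FL, and 473 and 460 in Col-0. The order of CCA1 between del-cIDR and inactive del-cIDR was the opposite of that of COR27 and COR28. CCA1 was highest in FL, where COR27 was at 873 ± 34 (SD, n = 2), close to its del-cIDR level. Any part of CCA1 in the levels of COR27 and COR28 was not tested. LHY, the partner of CCA1, averaged 115 ± 26 in del-cIDR, 224 ± 7 in inactive del-cIDR, 739 ± 17 in FL, 279 ± 29 in inactive FL and 338 ± 3 in Col-0 (SD, n = 2 each). In FL against inactive FL, CCA1 rose by 1.06 (SE 0.07) and LHY by 1.38 (SE 0.11), and 11 of the 13 morning genes rose and 0 fell, beside 58.1% of all features higher and 0.751% lower. After centring, CCA1 and LHY were the 2 genes called higher, and 3 were called lower.

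Of 18 light-signalling genes with a value, 11 were called higher and 3 lower in del-cIDR against inactive del-cIDR, beside 28.7% of all features higher and 2.76% lower, with a median of 0.27, equal to that of all features to 2 decimals. PHYB, the red-light receptor, averaged 2277 ± 43 in the del-cIDR libraries and 1576 ± 3 in inactive del-cIDR (SD, n = 2 each), a log2 difference of 0.53 (SE 0.05). COP1, a ubiquitin ligase to which COR27 and COR28 bind, had 608 and 616 in the del-cIDR libraries, 520 and 498 in inactive del-cIDR, 799 and 718 in FL, 605 and 686 in inactive FL, and 645 and 635 in Col-0. HY5, the transcription factor that opposes COP1, had 62.6 and 91.6 in the del-cIDR libraries, 107 and 87.4 in inactive del-cIDR, 175 and 157 in FL, 104 and 109 in inactive FL, and 136 and 121 in Col-0. Neither differed several-fold between del-cIDR and inactive del-cIDR, the comparison on which the set was chosen. After centring, 3 light genes were called higher and 7 lower in that comparison.

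The cold-response list was read because COR27 and COR28 are named for cold regulation. Of 21 cold genes with a value, 20 rose in del-cIDR against Col-0, beside 65.5% of all features, and 14 rose in inactive del-cIDR, beside 32.4%. In FL 17 rose, near the background of 75.5%, and in inactive FL 18 rose, beside 16.9%. KIN2 and COR413IM1 were the 2 that fell in inactive del-cIDR. Both del-cIDR libraries were the highest of 10 for 12 of the 21, as they were for COR28, and for CBF1, CBF3, COR15A and RD29A by at least 2-fold over the mean of the rest. Of all 30613 features, 5248 had both del-cIDR libraries highest, and 163 (0.532%) by at least 2-fold. Both inactive del-cIDR libraries were the lowest for 2 of the 21, and for 0 by at least 2-fold. Of all 30613 features, 2972 had both inactive del-cIDR libraries lowest, and 110 (0.359%) by at least 2-fold. CBF1, a transcription factor that switches on cold-response genes, had a signal of 831 and 860 in the del-cIDR libraries, 416 and 431 in inactive del-cIDR, 639 and 586 in FL, 416 and 403 in inactive FL, and 97.0 and 135 in Col-0. CBF2 had 1216 and 1220 in the del-cIDR libraries, 1032 and 1046 in inactive del-cIDR, 977 and 996 in FL, 546 and 600 in inactive FL, and 170 and 130 in Col-0. CBF1 and CBF2 were thus lowest in Col-0, where COR27 was highest. The log2 differences of CBF1, CBF2 and CBF3 from Col-0 ran from 1.44 to 3.47 over the 4 lines, and they were called higher after centring as well.

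KIN2, a cold-induced protein, was the cold gene with the largest change between del-cIDR and inactive del-cIDR. It had 741 and 687 in the del-cIDR libraries, 329 and 298 in inactive del-cIDR, 506 and 512 in FL, 618 and 576 in inactive FL, and 383 and 391 in Col-0, a rise in del-cIDR over inactive del-cIDR of 1.17 on the log2 scale (SE 0.08, limma adjusted p = 1.33e-17). In that comparison 16 of the 21 cold genes rose and 1 fell, beside 28.7% and 2.76% of all features, with a list median of 0.32 beside 0.27 for all features, and after centring 6 rose and 2 fell. In FL against inactive FL, 11 cold genes rose and 3 fell, beside 58.1% and 0.751% of all features, and after centring 1 rose and 14 fell. Against Col-0 after centring, 12 cold genes were called higher and 4 lower in del-cIDR, 11 higher and 6 lower in inactive del-cIDR, and 12 higher and 2 lower in inactive FL. In FL 6 were higher and 9 lower, so the direction of the list in FL depended on the scaling.

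The genes next to the 8 transcripts on the chromosome were described by the difference that chose the set. Because of that choice, nothing is read from larger values in the 8 transcripts than in their neighbours. Of 17 neighbouring or overlapping genes with a value, the log2 difference of del-cIDR from inactive del-cIDR ran from -0.63 to 1.21 with a median of 0.33, while the 8 transcripts ran from 1.06 to 2.71. Of the neighbours, 2 were at or above the smallest of the 8 transcripts. The largest was AT4G33985, beside COR28, with a mean signal of 218 ± 21 in del-cIDR, 90.5 ± 7.1 in inactive del-cIDR, 182 ± 30 in FL, 141 ± 7 in inactive FL and 82.4 ± 4.0 in Col-0 (SD, n = 2 each). It was close to its Col-0 level in inactive del-cIDR, unlike COR28. AT1G07040, beside AT1G07050, averaged 578 ± 3 in del-cIDR, 263 ± 3 in inactive del-cIDR, 566 ± 27 in FL, 606 ± 49 in inactive FL and 604 ± 3 in Col-0 (SD, n = 2 each). It had the same order as AT1G07050, low in inactive del-cIDR alone, with a smaller step of 1.12.

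The neighbours of COR27 were SCP2, at 0.25, and AT5G42905, at 0.17. VLN3 and OTP84, on either side of AT3G57420, were at 0.85 and 0.57. AT1G56300 overlaps AT1G56290, which stood at 0.33 beside 1.06 for AT1G56300. Whether reads were counted by strand is not given in the sources used here, so the signals of these overlapping genes are uncertain.

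**Figure D4:**
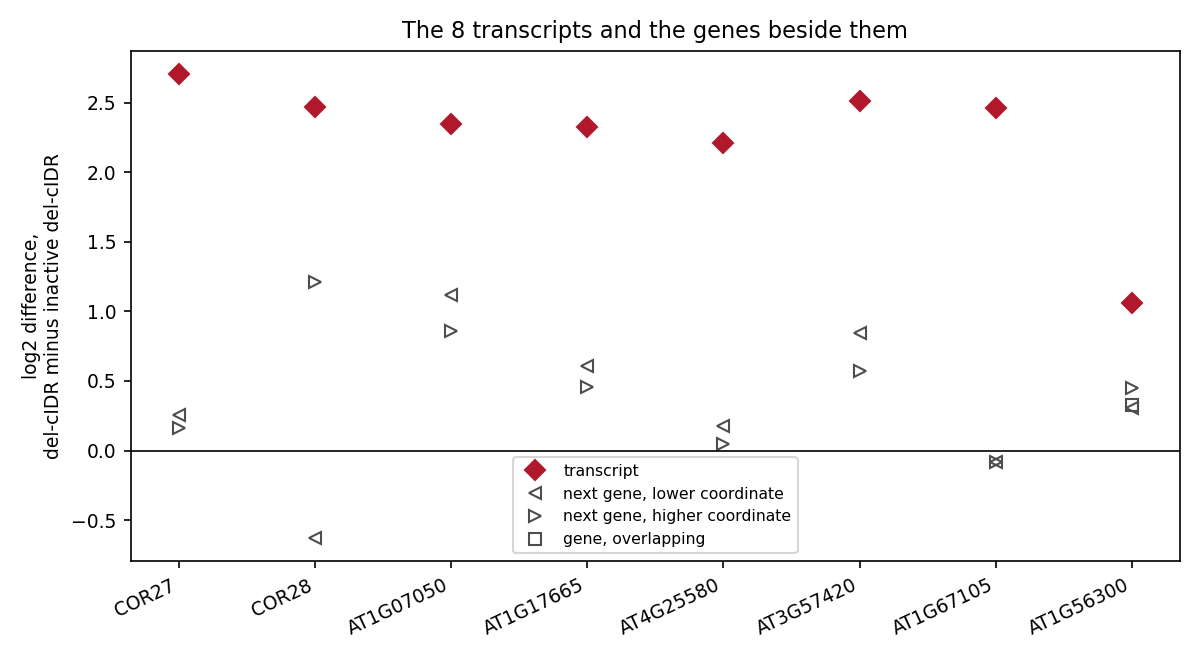
Log2 difference of del-cIDR from inactive del-cIDR for each of the 8 transcripts (diamonds) and for the next gene on each side or overlapping it (open symbols), among genes with a value. The neighbours lie between -0.63 and 1.21 and the 8 transcripts between 1.06 and 2.71, each transcript above its own neighbours. The set was chosen on this difference.

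The immunoprecipitated libraries offered no m6A value for the set. Of 2291 peaks in the authors' m6A table, 0 overlapped any of the 8 transcripts, whether at least 0.5 of the peak or any base of it had to lie in the gene. Among the 11272 genes in the members' range of levels, 12.5% held a peak by the stricter rule, and 7.99% of 26417 genes in all. The gene table names TAIR10.1 and the peaks TAIR10, and 95.1% of the 2247 peaks on nuclear chromosomes lay in a gene of that table. The table lists peaks only, so a gene without one is not shown to lack m6A. Over the lists, a peak was held by the clock genes GI, LUX and RVE4, the light genes COP1, SPA1, PHYB, UVR8 and SOC1, and the cold genes COR15B and COR47.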

How the data were processed

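Input libraries of chromatin-associated RNA, 2 for each of 5 genotypes, were compared. The expression values are a signal per feature that the authors deposited already normalized, and the m6A values are a ratio per peak as deposited by the authors. Per the submitters' processing notes, HISAT2, fastp, Picard, SAMtools, featureCounts, bedtools and MACS2 were used on TAIR10. Their settings and the normalization are not given in the sources used here. Of the low values in a library, 18.7% to 77.1% came out as whole multiples of a step (tolerance 0.1), so reads could not be recovered. The tables used hold 0 columns of other samples.

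Signals were analysed as log2(value + 6.94), the pseudocount being the 5th percentile of values above 0, so fold changes of low features are understated. Features had to reach it in 2 libraries, which removed 0. A mean for each of the 5 groups was fitted to the 10 libraries in limma 3.58.1 (R 4.3.3), the prior variance following a trend, with Benjamini-Hochberg adjustment. The fit was tested on simulated data with no shift shared by all features, so that test does not bear on the scaling. Groups came from the genotype and library labels. The members, gene lists and tests were chosen with earlier results of these data known. The text names all members, at most 4 called genes of smallest p from each list and comparison, the 5 features most like COR27 and like COR28, a homologue and neighbouring genes. Other genes named (among them COP1, HY5, PRR5, CBF3 and those listed by pattern) were added after their values were seen. Gene names and neighbours came from a RefSeq gene table, which held 26417 of the features. FT and GOLS3, on the lists, were not analysed here, nor were promoter and protein sequences. Figures were drawn with matplotlib 3.10.9.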

Additional observations from a re-analysis of the deposited data

Results flagged for a closer look

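The difference between del-cIDR and its inactive form was set against the difference between FL and its inactive form. COR28, AT1G07050, AT1G67105 and AT1G17665 were higher in both del-cIDR libraries than in inactive del-cIDR and lower in both FL libraries than in inactive FL. COR27 (-0.06) and AT1G56300 (-0.08) also had a lower mean in FL than in inactive FL, but with overlapping libraries. Among these transcripts, only COR28 was called in FL against inactive FL. The first log2 difference exceeded the second by 2.62 for COR28, 2.50 for AT1G07050, 2.79 for AT1G67105 and 2.44 for AT1G17665. This gap was not tested, because the del-cIDR libraries chose the set.

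For the clock, light and cold genes the gap was tested as an interaction in limma, with Benjamini-Hochberg adjustment over all features. Of 24 named genes 22 passed 0.05, but they had been named for small p-values in the same 2 comparisons, so nothing is read from that count. Of all features 6146 passed. In the evening list the log2 gap was 1.67 for TOC1, 1.17 for GI, 1.41 for LUX, 2.26 for FKF1 and -0.53 for CHE. In the morning list it was -1.97 for CCA1, -2.32 for LHY, -1.71 for LNK2 and -1.46 for RVE8. Among light genes the log2 gap was 0.29 for PHYA, 0.24 for PHYB, 0.41 for CRY2, 0.47 for UVR8, -0.83 for SPA3 and -0.32 for PIF5. Among cold genes it was 0.41 for CBF1, 1.22 for RD29A, 1.40 for KIN2, 1.05 for COR413IM1, -0.55 for CBF2, -0.35 for ZAT12 and -0.26 for ERD10. These gaps depend on the scaling, since centring each library moved the median gap of all features to 0.12, against -0.19 as deposited. After centring, CHE (-0.22), PIF5 (-0.01), CBF2 (-0.24) and ZAT12 (-0.04) no longer passed, nor did ERD10, whose gap turned to 0.05. The other 17 of the 22 kept their direction and passed.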

How the results depend on the processing

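Centring each library on its median made the members called 7 in FL against inactive FL, 8 in FL against Col-0 and 5 in inactive FL against Col-0. It turned the log2 difference of AT3G57420 (-0.26) and AT4G25580 (-0.18) in FL against inactive FL, of AT3G57420 (-0.75), AT4G25580 (-0.48) and AT1G56300 (-0.80) in FL against Col-0, and of COR28 (-0.28), AT1G07050 (-0.28) and AT1G56300 (-0.17) in inactive FL against Col-0. The features called in FL against inactive FL fell to 10164 with centring, against 18020 without. Centring gave 11 evening genes lower and 1 higher in inactive del-cIDR than in Col-0. Against Col-0 it gave 12 cold genes higher and 4 lower in del-cIDR, and 6 higher and 9 lower in FL. For ERD10 (0.046) and COR47 (0.300) it turned the gap between the active-minus-inactive differences of del-cIDR and FL, an alternative chosen after seeing the data. Without a trend in the prior variance, 1 member was called in inactive FL against Col-0, and COR27 (limma adjusted p = 0.0904) and, in FL against inactive FL, COR28 (limma adjusted p = 0.203) were lost. COR28 was also lost with a pseudocount of 1 (limma adjusted p = 0.0520). Leaving out each library in turn gave 1 to 3 members called in inactive FL against Col-0, the 1 without Col-0 replicate 2. Log2 differences that changed sign ran from -0.236 to 0.070 for AT1G56300 in FL against inactive FL and from -0.11 to 0.20 in FL against Col-0. In inactive FL against Col-0 they ran from -0.081 to 0.106 for COR28, -0.11 to 0.14 for AT1G07050, -0.121 to 0.048 for AT1G17665 and -0.081 to 0.063 for AT4G25580. Over 6 libraries, 0 of the 5 features most like COR27 and 0 of the 5 most like COR28 were shared. The cause of these changes was not tested. Same-numbered libraries deviated together weakly or not at all (correlations from -0.12 to 0.20 over 10 pairs of groups). The highest was that of inactive del-cIDR with inactive FL. Such correlations cannot exclude a batch shared by libraries of some groups. A replicate block left 3, 3 and 2 members called. For the peaks, alternatives of the expression fit do not apply and leaving out immunoprecipitated libraries was not run. With 2 libraries a group and unknown depth, small differences are not resolved.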

Other observations

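The constructs were also set side by side at the same catalytic state, as a description, since these libraries chose the set. In del-cIDR minus FL the log2 difference was 2.24 for AT3G57420, 2.02 for AT1G67105 and 1.43 for AT1G56300, against 0.60 for AT1G17665, 0.48 for COR28, 0.10 for COR27, 0.06 for AT1G07050 and -0.18 for AT4G25580. In inactive del-cIDR minus inactive FL it was -2.67 for COR27, -2.44 for AT1G07050, -2.14 for COR28, -2.02 for AT4G25580 and -1.84 for AT1G17665, against -0.77 for AT1G67105, 0.02 for AT3G57420 and 0.29 for AT1G56300.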
